A study of Mus musculus with 7 samples.

Results

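The MHC class II presentation genes described here are 10 mouse genes that make, load and switch on the molecules with which antigen-presenting cells show peptides to CD4+ T cells. They are the chain genes H2-Aa, H2-Ab1 and H2-Eb1, the invariant chain gene Cd74, the transactivator gene Ciita, the peptide editor genes H2-DMa, H2-DMb1 and H2-DMb2, and the editor's inhibitor genes H2-Oa and H2-Ob. They were chosen by name, and all 10 were found among the 39017 genes of the count table through their Ensembl identifiers. All 10 also passed the filter on low counts, which left 15968 genes to be tested. In edgeR none passed the threshold between Kdm6a conditional knockout (cKO) and wild-type (WT) libraries. For 7 of them the cKO mean was more than 2-fold the WT mean, with levels high in cKO replicates 2 and 7 and within or close to the WT range in cKO replicate 12.

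RNA was sequenced from lymph node CD4+ T cells of female C57BL/6 mice with experimental autoimmune encephalomyelitis, a mouse model of multiple sclerosis. Lymph node cells were taken on day 17 of disease and cultured for 18 hours with 25 µg/mL of a peptide of myelin oligodendrocyte glycoprotein, residues 35 to 55. CD4+ T cells were sorted after that culture, so antigen-presenting cells shared the dish until the sort. The question was what T cells express without Kdm6a, whose X-linked product is a histone demethylase acting on the repressive H3K27 methyl mark. The 4 cKO libraries, replicates 2, 3, 7 and 12, came from mice with both Kdm6a alleles floxed and CD4-Cre (+/-). The 3 WT libraries, replicates 10, 14 and 19, came from littermates that also carried floxed alleles on both X chromosomes but had CD4-Cre (-/-). Cre is driven by Cd4 regulatory sequence, which is active in developing T cells before they choose the CD4 or the CD8 lineage. Cre was present in the cKO group alone, so Cre and the deletion cannot be told apart. No ages of the mice are given. Whether each library stems from its own animal is not stated, and p-values therefore measure only the spread between these 7 samples.

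A class II molecule is a pair of chains, alpha and beta, assembled in the endoplasmic reticulum with the invariant chain, which plugs the peptide groove and leads the complex to endosomes. Proteases there trim the invariant chain to a short plug, the H2-DM heterodimer swaps that plug for an antigen peptide, and H2-O restrains H2-DM. The CIITA protein, encoded by Ciita, switches class II genes on by joining factors bound to the X and Y boxes of their promoters. B cells, dendritic cells and macrophages make class II constitutively or on activation. Mouse CD4+ T cells are known for making little or none, in contrast to activated human T cells. C57BL/6 mice display only the I-A molecule, the product of H2-Aa and H2-Ab1, because their H2-Ea gene is not transcribed. The H2-Eb1 chain is thus made without its alpha partner, and the myelin peptide used in the culture is presented by I-A.

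The class II promoter boxes are shown because CIITA acts through them, for the 6 genes whose window held the Y box word searched. The segments below run 5′ to 3′ on the strand of each gene, from RefSeq on the build GRCm38.p6, and were cut so that the Y box falls at the same place in each. Capitals mark the Y box TGATTGG and, upstream of it, the core of the X2 box, TGACG or TGATG. All lie on chromosome 17.
H2-Aa: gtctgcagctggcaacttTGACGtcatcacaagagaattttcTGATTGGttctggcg
H2-Eb1: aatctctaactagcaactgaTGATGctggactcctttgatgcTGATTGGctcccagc
H2-DMb1: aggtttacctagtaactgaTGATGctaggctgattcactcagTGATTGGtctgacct
H2-DMb2: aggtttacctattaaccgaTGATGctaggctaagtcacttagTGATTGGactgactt
H2-Ob: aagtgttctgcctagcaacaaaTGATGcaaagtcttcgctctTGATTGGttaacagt
H2-Oa: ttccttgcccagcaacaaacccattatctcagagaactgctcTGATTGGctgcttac
The segments were chosen by this Y box word, so that its letters are alike in all 6 by choice. Its first base lies between 45 (H2-Oa) and 92 (H2-DMb2) bases before the RefSeq start. In 5 of the 6 an X2 core lies upstream, with 15 bases (H2-Ob) to 19 bases (H2-Aa) between it and the Y box. H2-Aa alone among the 5 has TGACG there. The core marked is the nearest upstream that leaves at least 10 bases before the Y box, a rule that bounds this spacing from below. A further TGATG in H2-Eb1, closer to the Y box, was passed over and is not marked. The H2-DMb1 and H2-DMb2 segments match at 50 of 57 positions without gaps. Motifs were searched on both strands of windows that run from 250 bases before to 50 after a start. The Y box word TGATTGG occurred in 7.82% of all 32851 such windows, and the shorter word ATTGG that lies inside it in 37.41%. Of the X2 cores, the form TGACG occurred in 20.81% of the windows. The other form, TGATG, was present in 39.31% of them. H2-DMa, with 2 RefSeq windows, held no Y box of 7 letters, and 1 of the windows held ATTGG. Windows were used for 7 of the 10 genes, not for H2-Ab1, Ciita and Cd74. The longer Y box word and the second X2 form were chosen after the windows were seen, and a match is a description of letters, not a measured site.

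On the build mm10 (GRCm38), 8 of the 10 genes lie on chromosome 17. H2-Oa is at chr17:34092340-34095234 and H2-DMa at chr17:34119541-34139101. The H2-DMb2 gene, at chr17:34143307-34151555, and H2-DMb1, at chr17:34153072-34160230, lie next to each other and are closely related copies. How alike their transcripts are was not measured here, and their shares of reads are uncertain. H2-Ob follows at chr17:34238903-34254414, H2-Ab1 at chr17:34257689-34269419 and H2-Eb1 at chr17:34305867-34316674, all on the plus strand. H2-Aa, at chr17:34282744-34287823, is on the minus strand. Ciita is at chr16:10480059-10528418 and Cd74 at chr18:60803848-60812652, both on the plus strand. Gene models on the opposite strand overlap H2-Eb1 (Gm20513), Ciita (Dexi), H2-DMa (Brd2, CR974462.4 and Gm20493) and H2-Oa (BC051537). How strand was used in counting is not known from the labels, so reads of these 4 genes may include reads of their partners.

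Total counts ran from 17910536 (cKO replicate 2) to 28697579 (WT replicate 14). The transcript Gm42418 took 9.22% of cKO replicate 2 and 2.55% to 4.26% of the other libraries. That library stood apart, with a chi-square per gene of 51.9 to 109.5 against each other library, where all other pairs had 5.91 to 32.5. Without Gm42418 the ranges were 27.6 to 57.2 for its pairs and 5.89 to 31.2 for the others. Levels are CPM, a gene's counts relative to the library's total after TMM scaling. Kdm6a itself had 104, 96.3, 100.2 and 104 CPM in cKO replicates 2, 3, 7 and 12, against 120, 125 and 113 CPM in WT replicates 10, 14 and 19. The groups did not overlap, which was so for 21.0% of all genes tested. The log2 fold change was -0.24 ± 0.06 (SE, adjusted p = 0.0414 by edgeR's quasi-likelihood test). That call held in 9 of 18 settings and was lost when any of cKO replicates 3, 7 and 12 or any WT library was left out. It was also lost with either marker covariate described below and with cKO replicates 2 and 7 both left out. Gene totals include reads from outside the floxed exons, and exon counts were not used here. The 10 T cell markers were present in all libraries, with sums of 3474 to 4131 CPM in cKO and 3658 to 4144 CPM in WT, and Cd4 stood at 1033 to 1241 CPM in cKO and 986 to 1130 CPM in WT.

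The 2 chain genes of I-A were higher in mean in cKO libraries and differed widely among them. H2-Aa, the alpha chain gene, had 114, 46.0, 91.2 and 22.5 CPM in cKO replicates 2, 3, 7 and 12, against 38.7, 30.6 and 15.8 CPM in WT replicates 10, 14 and 19. Replicates 2, 3 and 7 of cKO lay above every WT library and cKO replicate 12 lay below 2 of the 3. The means were 68.4 ± 41.6 CPM in cKO and 28.4 ± 11.6 CPM in WT (SD, n = 4 and 3), and edgeR gave a log2 fold change of 1.26 ± 0.50 (SE) with an adjusted p of 0.184.
H2-Ab1, the beta chain gene, had 120.3, 53.8, 84.7 and 39.8 CPM in the cKO replicates in the same order, against 45.9, 38.6 and 22.4 CPM in the WT replicates. Again 3 of 4 cKO libraries exceeded all WT libraries, and cKO replicate 12 lay inside the WT range. The log2 fold change was 1.06 ± 0.37 (SE), with a 95% interval from 0.24 to 1.89 and an adjusted p of 0.128 in edgeR.

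H2-Eb1, the beta chain gene of I-E, had 99.9, 36.5, 75.6 and 22.8 CPM in cKO replicates 2, 3, 7 and 12, against 36.6, 28.0 and 15.6 CPM in WT replicates 10, 14 and 19. Here only cKO replicates 2 and 7 exceeded every WT library. The log2 fold change was 1.13 ± 0.47 (SE), with an adjusted p of 0.206 in edgeR. Its alpha partner in other strains is recorded in the table as H2-Ea-ps, which had no count in any library, which allows at most 0.104 to 0.168 CPM depending on the library (3 counts of the total, counting error only). H2-Eb2, a related beta chain gene, had 0.284 to 3.27 CPM in cKO and 0.354 to 1.39 CPM in WT and did not pass the test.

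Cd74, which encodes the invariant chain, was the most abundant of the 10 per kilobase of exon. It had 437, 189, 314 and 125 CPM in cKO replicates 2, 3, 7 and 12, against 162, 121 and 78.6 CPM in WT replicates 10, 14 and 19. The cKO mean was 266 ± 138 CPM and the WT mean 121 ± 41.7 CPM (SD, n = 4 and 3), with cKO replicate 12 inside the WT range. The log2 fold change was 1.14 ± 0.40 (SE), with an adjusted p of 0.131 in edgeR. Cd74 made up 38.2% to 46.2% of the summed CPM of the 10 genes in cKO libraries and 28.5% to 39.1% in WT libraries.

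Ciita, the gene for the transactivator, ranked the 7 libraries in the same order as Cd74. It had 18.8, 8.98, 14.9 and 6.01 CPM in cKO replicates 2, 3, 7 and 12, against 7.66, 5.65 and 3.19 CPM in WT replicates 10, 14 and 19. Its log2 fold change was 1.14 ± 0.40 (SE, adjusted p = 0.135 by edgeR), the same to 2 decimals as that of Cd74. Over the 7 libraries the log2 CPM of Ciita had a Pearson r of 0.993 with the mean log2 CPM of H2-Aa, H2-Ab1, H2-Eb1 and Cd74, a description with no test, since the genes share libraries and groups.

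**Figure D1:**
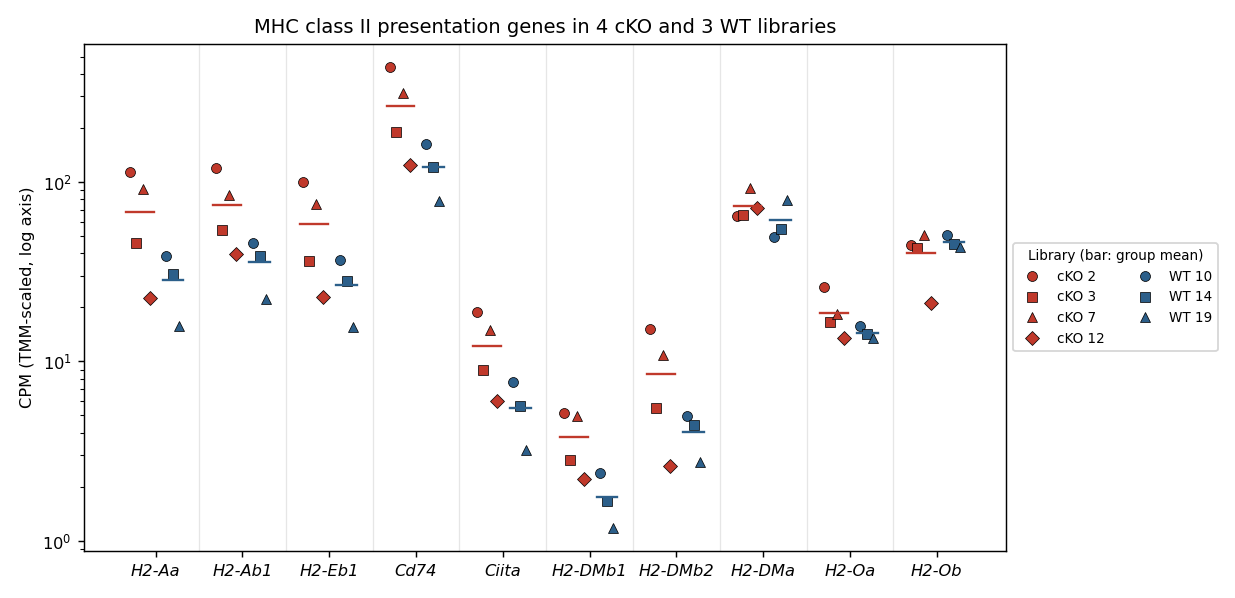
TMM-scaled CPM on a log axis for the 10 genes, one marker per library, with cKO in red left of WT in blue and a bar at each group mean. For H2-Aa, H2-Ab1, H2-Eb1, Cd74, Ciita, H2-DMb1 and H2-DMb2 the circle (replicate 2) and triangle (replicate 7) of cKO stand above all WT points and the diamond (replicate 12) lies among or below them, while H2-DMa, H2-Oa and H2-Ob have log2 fold changes of 0.26, 0.36 and -0.22.

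Among the peptide editor genes the beta chains were higher in mean in cKO, and the alpha chain differed less. H2-DMb1 had 5.14, 2.83, 4.99 and 2.23 CPM in cKO replicates 2, 3, 7 and 12, against 2.40, 1.66 and 1.18 CPM in WT replicates 10, 14 and 19. H2-DMb2 had 15.2, 5.49, 10.9 and 2.60 CPM in cKO, against 4.99, 4.44 and 2.76 CPM in WT. Both were highest in cKO replicates 2 and 7, and for H2-DMb2 cKO replicate 12 was the lowest of all 7 libraries. The log2 fold change was 1.11 ± 0.36 for H2-DMb1 (SE, adjusted p = 0.108 by edgeR) and 1.06 ± 0.51 for H2-DMb2 (SE, adjusted p = 0.267). Of the 10 genes, H2-DMb1 had the lowest adjusted p and also the fewest reads, 458 over all libraries.
H2-DMa, which encodes the alpha chain that pairs with either beta chain, had 64.9, 65.9, 92.2 and 71.4 CPM in cKO, against 49.6, 54.9 and 79.6 CPM in WT. The groups overlapped, the high libraries were cKO replicate 7 and WT replicate 19, and the log2 fold change was 0.26 ± 0.17 (SE), with an adjusted p of 0.434 in edgeR. The highest library exceeded the lowest by 1.86-fold for H2-DMa, against 4.35-fold for H2-DMb1 and 5.86-fold for H2-DMb2.

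The inhibitor genes had small differences between groups, in opposite directions. H2-Oa, the alpha chain gene of H2-O, had 25.9, 16.6, 18.4 and 13.5 CPM in cKO replicates 2, 3, 7 and 12, against 15.7, 14.2 and 13.4 CPM in WT replicates 10, 14 and 19. Its log2 fold change was 0.36 ± 0.19 (SE, adjusted p = 0.322 by edgeR), with cKO replicate 2 alone well above the rest. H2-Ob, the beta chain gene, had 44.8, 42.9, 50.9 and 21.3 CPM in cKO, against 50.6, 45.4 and 43.2 CPM in WT. It was the 1 gene of the 10 with a lower mean in cKO, at 40.0 ± 12.9 CPM in cKO and 46.4 ± 3.78 CPM in WT (SD, n = 4 and 3), and cKO replicate 12 was the lowest library. The log2 fold change was -0.22 ± 0.24 (SE), with an adjusted p of 0.662 in edgeR.

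Set side by side, 0 of the 10 genes passed the threshold in either direction, against 6.44% of the 15968 genes tested (2.79% higher and 3.64% lower in cKO). At an unadjusted p under 0.05, 6 of the 10 were higher in cKO, against 11.1% of all genes tested; these were H2-Aa, H2-Ab1, H2-Eb1, Cd74, Ciita and H2-DMb1. The median log2 fold change was 1.09 over the 10 and 0.01 over all genes tested. DESeq2 called 1 of the 10, H2-DMb1 (log2 fold change 1.11, adjusted p = 0.0322), against 10.2% of all genes, and limma voom called 0, against 10.8%, with 7 of the 10 higher at an unadjusted p under 0.05, against 12.9% of all genes. No gene of the 10 separated the groups, whereas 21.0% of all genes tested did. With cKO replicate 2 left out, edgeR called 0 of the 10, against 6.73% of all genes, 4 were higher at an unadjusted p under 0.05, against 9.65%, and the median log2 fold change was 0.74. H2-Aa then stood at 0.91 ± 0.46 (SE) and Cd74 at 0.80 ± 0.33. With cKO replicate 12 left out, edgeR called Cd74 (log2 fold change 1.38, adjusted p = 0.0449) and H2-Aa (1.55, adjusted p = 0.0478), against 6.39% of all genes. With cKO replicates 2 and 7 left out, none of the 10 was called, against 4.36% of all genes, none had an unadjusted p under 0.05 (7.93% of all genes were higher at that level), and the median log2 fold change was 0.21. The number higher at an unadjusted p under 0.05 was 1 without WT replicate 19, against 8.63% of all genes, and 3 without WT replicate 14, against 7.80%.

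All 10 genes reached their highest level in cKO replicate 2 or cKO replicate 7. The summed level of the 10 was 946, 468, 758 and 327 CPM in cKO replicates 2, 3, 7 and 12, against 414, 345 and 276 CPM in WT replicates 10, 14 and 19. The sum in cKO replicate 12 was thus below 2 of the 3 WT libraries and that in cKO replicate 2 was more than 2-fold any of them. The ratio of highest to lowest library was 7.19 for H2-Aa, 6.39 for H2-Eb1, 5.88 for Ciita, 5.57 for Cd74 and 5.38 for H2-Ab1. It was 2.39 for H2-Ob and 1.93 for H2-Oa.

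Levels of different genes were compared as CPM per kilobase of exon. Cd74 stood first in both groups, at 159 ± 82.4 in cKO and 71.8 ± 24.8 in WT (SD, n = 4 and 3), and its lowest library exceeded the highest library of every other gene of the set in the same group. In cKO the order then ran H2-Eb1 (30.2 ± 18.2), H2-Ab1 (29.1 ± 13.9), H2-DMa (21.3 ± 3.70), H2-Aa (18.0 ± 10.9), H2-Oa (13.2 ± 3.76), H2-Ob (7.43 ± 2.40), H2-DMb2 (4.90 ± 3.22), H2-DMb1 (2.26 ± 0.885) and Ciita (1.28 ± 0.602), all CPM per kilobase. Of these neighbours in cKO, only H2-Oa and H2-Ob did not overlap over their libraries.
In WT the order was H2-DMa (17.8 ± 4.64), H2-Ab1 (13.9 ± 4.69), H2-Eb1 (13.8 ± 5.42), H2-Oa (10.3 ± 0.823), H2-Ob (8.63 ± 0.702), H2-Aa (7.47 ± 3.05), H2-DMb2 (2.33 ± 0.666), H2-DMb1 (1.04 ± 0.364) and Ciita (0.577 ± 0.235), all CPM per kilobase. There the pairs H2-Oa and H2-Ob, H2-Aa and H2-DMb2, and H2-DMb2 and H2-DMb1 did not overlap, and the other neighbours did. H2-DMa, which pairs with the product of H2-DMb1 or H2-DMb2, was above both of them per kilobase in every library. By mean, H2-Aa was above H2-Ob in cKO and below it in WT.

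The sorted population was checked for other cells that make class II, in bulk libraries where fewer cells of a type and less RNA per cell cannot be told apart. The 18 B cell markers were measured in every library, and their mean log2 CPM was 4.21, 3.08, 3.91 and 2.05 in cKO replicates 2, 3, 7 and 12, against 3.13, 2.76 and 2.07 in WT replicates 10, 14 and 19. All 18 were highest in cKO replicate 2 or 7, as the class II genes were. Their summed CPM ran from 447 to 945 in cKO and from 495 to 643 in WT. In edgeR none of the 18 was called, against 6.44% of all genes. At an unadjusted p under 0.05, 1 was higher in cKO, Fcer2a, against 11.1% of all genes. Fcer2a, the gene of the low-affinity IgE receptor CD23, was called by DESeq2 (log2 fold change 1.64, adjusted p = 0.029) and by edgeR without cKO replicate 12 (1.95, adjusted p = 0.0278), and limma voom called 0. DESeq2 called 10.2% of all genes, edgeR without cKO replicate 12 called 6.39% and limma voom 10.8%. Of the 18, 16 had a positive log2 fold change, and the median was 0.93 against 0.01 over all genes. The most abundant B cell markers by CPM were Ighm, the immunoglobulin heavy chain gene, at 335 to 646 CPM in cKO and 344 to 445 CPM in WT, Cd72, Cd22 and Cd79b. Cd72 (log2 fold change -0.10) and Vpreb3 were the 2 markers with a negative value.

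Across the 7 libraries, 8 of the 10 genes followed the B cell markers closely. For these 8 the Pearson r between log2 CPM of the gene and the mean log2 CPM of the B cell markers ran from 0.896 (H2-DMb1) to 0.991 (H2-DMb2), with exact permutation p from 0.000595 to 0.0115 (two-sided, Benjamini-Hochberg 0.00198 to 0.0144 over 10 relations). Spearman's rho ran from 0.857 to 0.964 (exact permutation p 0.00278 to 0.0238, Benjamini-Hochberg 0.0139 to 0.0298). For H2-Ob r was 0.589 (exact permutation p = 0.141, adjusted 0.157) and rho 0.643 (exact permutation p = 0.139, adjusted 0.154). H2-DMa gave an r of 0.0374 (exact permutation p = 0.928, adjusted 0.928) and a rho of -0.179 (exact permutation p = 0.713, adjusted 0.713). The permutations exchanged libraries freely between cKO and WT. These p-values therefore do not separate a shared group difference from a relation within groups. Without cKO replicates 2 and 12, farthest from the median of the markers, r was 0.954 to 0.999 for the 8, 0.726 for H2-Ob and 0.204 for H2-DMa. With group means removed, r was 0.898 to 0.997 for the 8, 0.872 for H2-Ob and -0.21 for H2-DMa. Each group holds fewer than 6 libraries, so no value within a group is given.

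**Figure D2:**
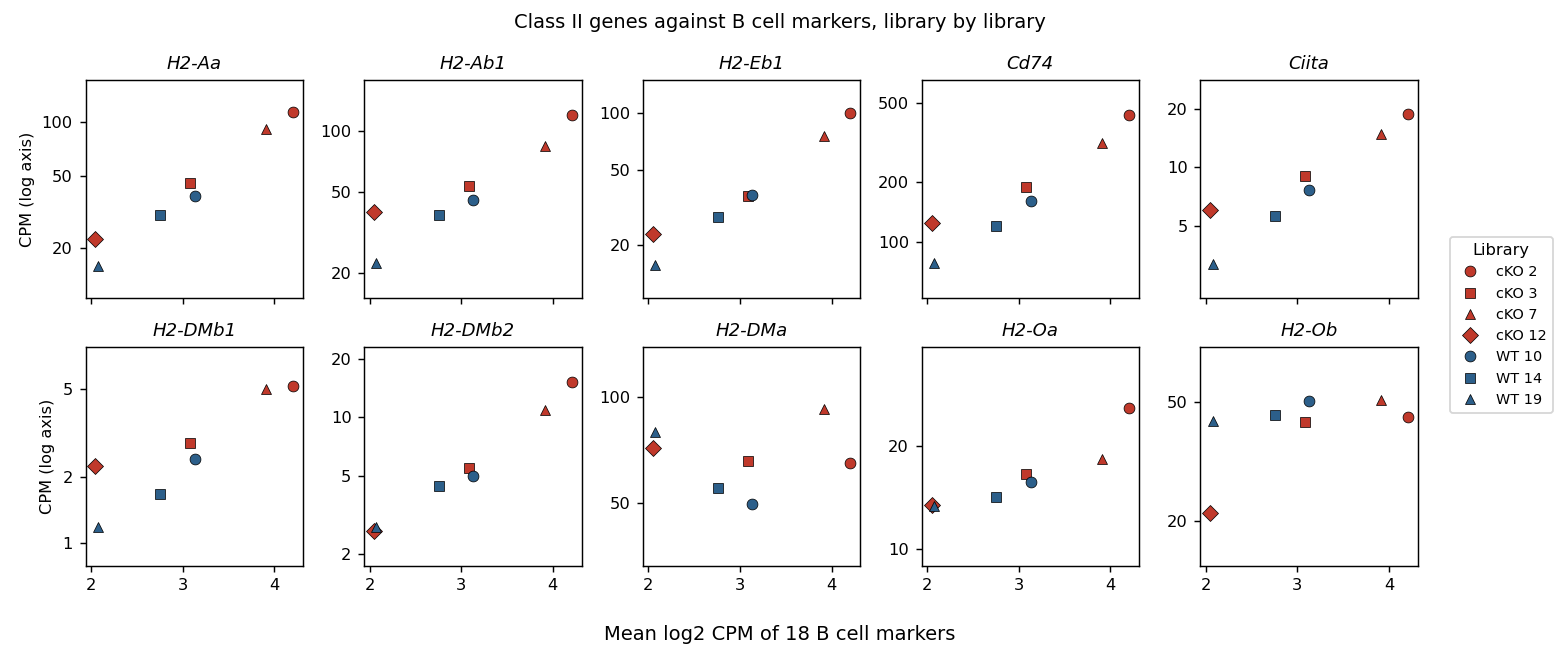
CPM of each class II gene on a log axis against the mean log2 CPM of 18 B cell markers, one point per library, cKO in red and WT in blue. Points of both groups rise with the markers for 8 genes (r from 0.896 to 0.991), while H2-DMa shows no trend and H2-Ob is low in cKO replicate 12 only.

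The class II genes were next given relative to the summed CPM of Ms4a1, Cd79a and Cd79b, genes of CD20 and of the B cell receptor's signalling chains. That sum rested on 315 to 1492 reads per library. These genes were chosen after the data were seen. Ms4a1 (r 0.990) and Cd79a (r 0.980) were among the 10 genes of highest likeness to H2-Aa, H2-Ab1, H2-Eb1 and Cd74, described below. A narrow ratio for genes that follow them is therefore partly built in by that choice, and its p-value is no independent test. Per unit of Ms4a1, Cd79a and Cd79b, H2-Aa stood at 1.40, 1.32, 1.41 and 1.51 in cKO replicates 2, 3, 7 and 12, against 1.14, 1.34 and 1.15 in WT replicates 10, 14 and 19. The ratio varied 1.33-fold over the libraries where the CPM of H2-Aa varied 7.19-fold. The groups overlapped, with WT replicate 14 above cKO replicate 3, and the mean difference was 0.22 on the log2 scale (exact permutation p = 0.0571, two-sided, where 35 splits allow no p under 0.0286; 0.286 after Benjamini-Hochberg adjustment over 10 genes).
Cd74 relative to the same genes stood at 5.39, 5.46, 4.85 and 8.38 in cKO, against 4.75, 5.32 and 5.70 in WT, so that cKO replicate 12 alone lay above the WT range. H2-Ab1 had its highest ratio in the same library, 2.67, against 1.31 to 1.55 in the other cKO libraries and 1.35 to 1.69 in WT. Ciita did so as well, with 0.403 in cKO replicate 12, 0.230 to 0.259 in the other cKO libraries and 0.225 to 0.248 in WT. For H2-Ob the ratio was 0.551 to 1.43 in cKO and 1.48 to 3.14 in WT, without overlap, a log2 difference of -1.17 (exact permutation p = 0.0571, 0.286 adjusted). For the other 8 genes the exact permutation p ran from 0.314 to 0.857. H2-DMa varied more as a ratio, 7.23-fold, than as CPM, 1.86-fold. The dividing sum itself was 48.9 CPM in cKO and 23.5 CPM in WT by mean. A gene that does not follow it closely, such as H2-Ob, can therefore have a lower ratio in cKO. The mean ratio was also lower in cKO for H2-DMa, H2-Oa, Cd4 (35.9 against 51.6) and Kdm6a (3.14 against 5.73), with overlapping groups. The share of all genes whose ratio did not overlap was not computed.

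**Figure D3:**
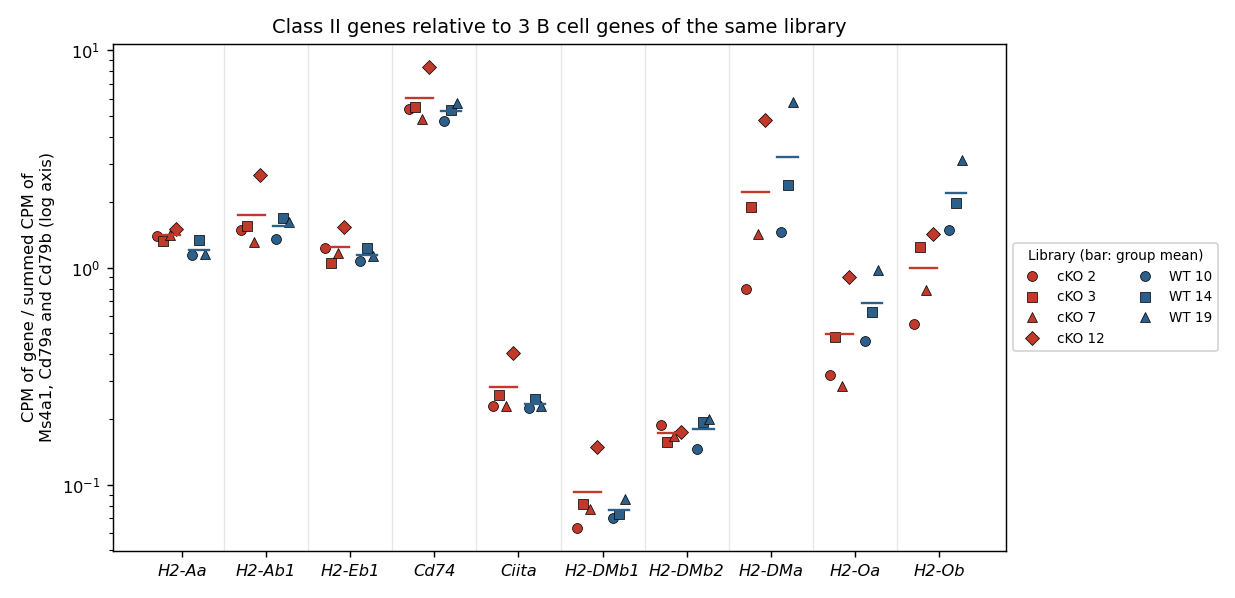
CPM of each class II gene divided by the summed CPM of Ms4a1, Cd79a and Cd79b in the same library, on a log axis, with cKO in red left of WT in blue and a bar at each group mean. The dividing genes were chosen after the data were seen. H2-Aa, H2-Eb1 and H2-DMb2 lie in narrow bands (1.33-fold, 1.46-fold and 1.37-fold from lowest to highest), the diamond of cKO replicate 12 is the highest point for 6 genes, H2-Aa, H2-Ab1, H2-Eb1, Cd74, Ciita and H2-DMb1, and H2-DMa spreads over 7.23-fold.

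With the mean log2 CPM of the B cell markers as a covariate, the log2 fold changes shrank for 8 of the 10 genes, and so did their SE. Cd74 was then called at 0.50 ± 0.10 (SE, adjusted p = 0.0209 by edgeR), H2-Aa was called at 0.37 ± 0.08 (SE, adjusted p = 0.0325), and 4.78% of all genes were called in that fit. H2-Ab1 stood at 0.50 ± 0.12 (adjusted p = 0.0521), Ciita at 0.53 ± 0.15 (adjusted p = 0.0848), H2-DMb2 at 0.10 ± 0.16 and H2-Ob at -0.57 ± 0.16 (adjusted p = 0.0823). A covariate of B cell, dendritic cell and macrophage markers together left none of the 10 called, against 3.74% of all genes, with Cd74 at 0.36 ± 0.09 (adjusted p = 0.0805) and H2-Aa at 0.23 ± 0.16. Which cells carry the remaining difference was not tested.

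**Figure D4:**
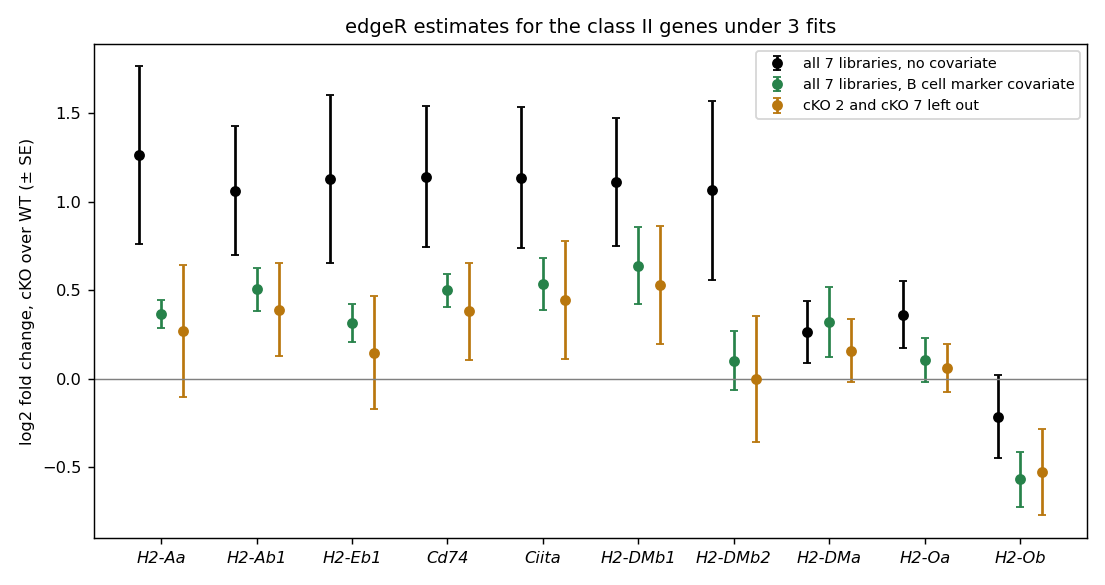
Log2 fold change of cKO over WT with its SE for the 10 genes in edgeR fits with all 7 libraries (black), with the B cell marker covariate (green) and without cKO replicates 2 and 7 (orange). H2-Aa stands at 1.26 with all libraries, 0.37 with the covariate and 0.27 without replicates 2 and 7, and H2-DMb2 at 1.06, 0.10 and -0.0033.

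Macrophage and dendritic cell markers were sparser. Of 15 macrophage or monocyte markers 10 were tested and edgeR called none, against 6.44% of all genes. At an unadjusted p under 0.05, 4 were higher in cKO, against 11.1% of all genes. DESeq2 called 1, Adgre1, and limma voom 0, against 10.2% and 10.8% of all genes. The list had a summed CPM of 46.3 to 159 in cKO and 40.7 to 59.5 in WT and a median log2 fold change of 0.86. Adgre1, the gene of the macrophage marker F4/80, had 14.4, 0.540, 2.56 and 0.474 CPM in cKO replicates 2, 3, 7 and 12, against 0.425, 0.347 and 0.118 CPM in WT (log2 fold change 3.86 ± 1.27, adjusted p = 0.115 by edgeR). All cKO libraries lay above WT, where 21.0% of all genes tested did not overlap between groups. Replicates 3 and 12 of cKO did so only narrowly, and WT replicate 19 was near the 0.1165 CPM that 3 counts make there. Of the 10 tested, 9 had a positive log2 fold change. Cd68, Csf1r, Mpeg1 and Itgam were the most abundant. Csf1r differed little, with 14.6 to 18.0 CPM in cKO and 15.5 to 17.5 CPM in WT (log2 fold change 0.004). Itgam, an integrin gene of myeloid cells, had 34.6, 2.62, 7.20 and 0.852 CPM in cKO replicates 2, 3, 7 and 12, against 3.44, 1.87 and 2.05 CPM in WT, so that cKO replicate 2 stood apart. C1qa, C1qb and C1qc, complement genes of resident macrophages, had at most 0.584 CPM in any library. Of 14 dendritic cell markers 9 were tested, 6 of them had a positive log2 fold change, and the median was 0.66. The list had a summed CPM of 84.5 to 171 in cKO and 126 to 159 in WT. In edgeR 1 was called, Cacnb3, lower in cKO, against 6.44% of all genes. Clec9a had no count in any library, and Itgax, the gene of CD11c, had 0.189 to 1.64 CPM in cKO and 0.0788 to 0.232 CPM in WT. Wdfy4 (6.16 to 49.3 CPM in cKO and 6.14 to 19.6 CPM in WT), Fscn1 and Ccl22 did not pass the test. Cacnb3, a calcium channel subunit gene also made by other cells, fell to 25.0 ± 3.99 CPM in cKO, against 76.2 ± 9.35 CPM in WT (SD, n = 4 and 3), and edgeR gave a log2 fold change of -1.61 ± 0.13 (SE) with an adjusted p of 0.00016.

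By likeness across the 7 libraries, the 10 genes outside the set closest to the mean log2 CPM of H2-Aa, H2-Ab1, H2-Eb1 and Cd74, among 9660 ranked, were Mpeg1 (r 0.998), Plcg2 (0.995), Hps4 (0.991), Ms4a1 (0.990), Thbs1 (0.984), Csf2rb (0.983), Cd79a (0.980), Mef2c (0.980), Tcf4 (0.979) and Irf8 (0.977). Ms4a1 and Cd79a belong to the B cell list and Mpeg1, which encodes a pore-forming protein, to the macrophage list. Irf8, a transcription factor gene of myeloid and B cells, had 135, 99.5, 135 and 80.4 CPM in cKO replicates 2, 3, 7 and 12, against 101, 95.1 and 69.1 CPM in WT. Hps4 varied over a much smaller span, 30.1 to 36.5 CPM in cKO and 28.0 to 31.4 CPM in WT. Among the 10 members the same r was 0.970 for H2-DMb1 and for H2-DMb2, 0.931 for H2-Oa, 0.364 for H2-Ob and 0.103 for H2-DMa.

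On the list for transcription of class II genes, edgeR called 0 of 15, against 6.44% of all genes. At an unadjusted p under 0.05, 2 were lower in cKO, and the median log2 fold change was -0.04. DESeq2 called 1 of the 15 and limma voom 0, against 10.2% and 10.8% of all genes. Rfx5, which encodes the X box factor, had 49.3 to 54.9 CPM in cKO and 48.2 to 51.2 CPM in WT, and edgeR gave a log2 fold change of 0.06 ± 0.06 (SE) with an adjusted p of 0.660. Its partner genes Rfxank and Rfxap also did not pass the test, at -0.03 ± 0.06 and -0.09 ± 0.08. The gene Nfya of the Y box factor had 81.9 to 103 CPM in cKO and 103 to 113 CPM in WT (-0.22 ± 0.08, adjusted p = 0.129). Irf1, which carries interferon signals to Ciita, did not pass the test either (-0.18 ± 0.14, adjusted p = 0.498). Irf2 (-0.14) and Creb1 (-0.04), which encodes a factor of the X2 box, were also abundant. Spi1, which encodes PU.1 of myeloid and B cells, was highest in cKO replicates 2 and 7, with 9.52, 2.20, 6.47 and 0.805 CPM in cKO, against 2.71, 1.60 and 1.06 CPM in WT.

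Of 10 endosomal processing genes edgeR called none, against 6.44% of all genes. At an unadjusted p under 0.05, 6 were higher in cKO, against 11.1% of all genes. Of the 10, 8 had a positive log2 fold change, and the median was 0.21. DESeq2 called 3 of them (Ctsz, Cst3 and Ctsh), against 10.2% of all genes. Limma voom called 1 (Ctsl), against 10.8%, and edgeR without the filter 1 (Ctsh), against 4.86%. With 1 library left out edgeR called up to 2, with Ctsz and Ctsh called without cKO replicate 3, Ctsl without cKO replicate 12 and Lgmn, lower in cKO (log2 fold change -0.36), without cKO replicate 2. Ctss, the cathepsin that trims the invariant chain in B cells and dendritic cells, had 144 to 170 CPM in cKO and 151 to 178 CPM in WT, and edgeR gave a log2 fold change of -0.09 ± 0.08 (SE) with an adjusted p of 0.576. Ctsl, a cathepsin known for the same step in thymic epithelium, had 16.7 to 22.0 CPM in cKO and 15.9 to 16.9 CPM in WT (0.27 ± 0.10, adjusted p = 0.161). Ctsd and Ctsb, abundant endosomal proteases, had values of 0.18 ± 0.08 (adjusted p = 0.208) and 0.15 ± 0.06 (adjusted p = 0.197), and Sppl2a, which clears the invariant chain stub, 0.10 ± 0.06 (adjusted p = 0.409). Ctsh, chosen after its values were seen, had the largest value of the list, with 21.9, 5.90, 11.0 and 6.68 CPM in cKO, against 4.91, 3.57 and 2.64 CPM in WT (1.60 ± 0.45, adjusted p = 0.072).

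Of 10 genes for class II traffic and turnover, edgeR called 1, March8, against 6.44% of all genes. The median log2 fold change was 0.11. DESeq2 called Arl14ep (log2 fold change 0.41) and Myo1e (0.67) as well, against 10.2% of all genes. Limma voom called Arl14ep as well, against 10.8%. March8 (also Marchf8) encodes a membrane ubiquitin ligase whose targets include class II. It rose in cKO libraries, with 7.07, 5.28, 4.86 and 5.97 CPM in cKO replicates 2, 3, 7 and 12, against 2.63, 1.94 and 1.69 CPM in WT replicates 10, 14 and 19. Unlike the class II genes, it separated the groups completely, as 21.0% of all genes tested did in either direction. On the same list Arl14ep and Myo1e, higher in cKO, and Rab7, lower in cKO, separated the groups too. For March8, cKO replicates 3 and 12 were at least as high as cKO replicate 7. The log2 fold change was 1.47 ± 0.21 (SE), with an adjusted p of 0.0043 in edgeR, and it was called in all 17 settings that tested it. March1, the related ligase of B cells and dendritic cells, had 0.379 to 3.51 CPM in cKO and 0.433 to 1.51 CPM in WT and was not called (adjusted p = 0.380). Lamp1, Ap3b1 and Rab7, genes of lysosomes and endosomal sorting, had log2 fold changes of -0.02, 0.07 and -0.08.

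Of 6 receptors and ligands of class II and of Cd74, 0 were called by edgeR, DESeq2 or limma voom. These tools called 6.44%, 10.2% and 10.8% of all genes. In edgeR, 0 of the 6 had an unadjusted p under 0.05. Cd4, the coreceptor that binds class II, had a log2 fold change of 0.11 ± 0.08 (SE) with an adjusted p of 0.513 in edgeR. Mif, a ligand of the CD74 protein at the cell surface, had -0.09 ± 0.13 (adjusted p = 0.738), and Cd44 and Cxcr4, receptors that work with CD74, had 0.38 ± 0.27 (adjusted p = 0.463) and 0.28 ± 0.20 (adjusted p = 0.488). Of 6 other tested genes of the class II locus, too, 0 were called by these tools and 0 had an unadjusted p under 0.05, and the median was -0.05. Tap1 and Tap2, the peptide transporter of class I, and Psmb8, an immunoproteasome gene, had log2 fold changes of -0.0035, -0.04 and -0.11. Brd2, which lies between class II genes and overlaps H2-DMa on the other strand, had 686 to 790 CPM in cKO and 783 to 861 CPM in WT (-0.14 ± 0.07, adjusted p = 0.315).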

How the data were processed

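Messenger RNA was sequenced from 4 cKO and 3 WT libraries. The table deposited by the authors holds unnormalized counts of reads for each Ensembl gene, judged from its whole numbers and unequal totals. Per the labels' protocols, mRNA was enriched and a stranded library kit used. The tool bcl2fastq 2.17 and the build mm10 were used, per the submitters' processing notes. Which aligner and counter were run, and whether strand was used, is not given in the sources used here.

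Symbols, exon lengths and coordinates came from GENCODE models of the same build, which matched 37607 of 39017 identifiers. The other 1410 held at most 1.79% of a library. No libraries were duplicates (lowest chi-square per gene between a pair 5.91). Counts were filtered with filterByExpr, TMM-scaled and compared by the quasi-likelihood test in edgeR 4.0.16 (R 4.3.3) without covariates, with Benjamini-Hochberg values over 15968 genes and 0.05 as the threshold. SE were derived from the F statistic, and log2 CPM used a prior count of 2. Depth sets the precision, and floors cover counting error only. The fit was tested on simulated data.

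The members and the lists were chosen with earlier results of these data known. The named genes were the 10 members, Kdm6a, up to 4 genes of each list (called ones by lowest p, then the most abundant) and the 10 genes of highest likeness with a mean CPM of at least 5; others named were chosen after their values were seen, and some genes of the lists are not reported here. Of 122 list entries 120 were matched, and H2-Ea and Ighd were not. The alternatives tried were upper-quartile and DESeq2 size factors, DESeq2 1.42.0 itself, limma 3.58.1 voom with sample weights, removal of the filter, a filter at CPM 1 in 3 libraries with mean CPM 5, marker covariates, 0.1 as the threshold, and each library left out in turn. Leaving out cKO replicates 2 and 7, leaving out Gm42418, and the ratio to 3 B cell genes were chosen after seeing the data. Tables and plots used Python 3.11.15, pandas 2.3.3 and matplotlib 3.10.9.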

Additional observations from a re-analysis of the deposited data

Results flagged for a closer look

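The 65 genes checked were the members, Kdm6a, those drawn from the lists by rule and those of highest likeness. For 4 of them, 1 cKO library stood far from the other 3 by Dixon's 95% criterion for 4 samples. Chance meets that criterion in about 1 group in 20. None of the 4 is a class II gene. Sdc1 had 7.01 CPM in cKO replicate 2, against 4.04 to 4.53 CPM in the other cKO libraries. Jchain, a gene of plasma cells, had 31.0 CPM in cKO replicate 7 and 2.92 to 6.49 CPM in the others. Cd68, a gene of macrophage lysosomes, was lowest in cKO replicate 12, with 6.39 CPM against 8.86 to 9.35 CPM. Pdpn had 4.07 CPM in cKO replicate 12 and 0.26 to 0.582 CPM in the others. Genes named after their values were seen were not among the 65. Of these, Adgre1 and Lgmn meet the same criterion in cKO replicate 2. Adgre1 had 14.4 CPM there, against 0.474 to 2.56 CPM in the other cKO libraries, and Lgmn 52.0 CPM, against 25.9 to 28.1 CPM.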

How the results depend on the processing

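The number of all genes called, 1028, was 1625 with DESeq2, 1729 with limma voom, 598 with the covariate of B cell, dendritic cell and macrophage markers, 1644 at a threshold of 0.1, and 419 (without WT replicate 14) to 1065 with 1 library left out, where leaving out WT replicates 10 and 19 gave 497 and 466. The number of class II genes called, 0, was 1 with DESeq2, 2 with the B cell marker covariate and 0 to 2 with 1 library left out. The 4 calls in the other lists became 14 with DESeq2, 8 with limma voom and 3 to 7 (without cKO replicate 12) with 1 library left out. Of the 10 genes of highest likeness, 6 were shared when group means were removed and 4 (without cKO replicate 12) to 9 with 1 library left out, with 5 without cKO replicate 7 and 6 without WT replicate 19. Over 169 alternative values of the class II genes, 162 kept their direction and side of the threshold and 5 became calls. The other 2 reversed: H2-DMb2 stood at -0.026 with the 3-type covariate and at -0.0033 without cKO replicates 2 and 7; the cause was not tested. H2-DMb1 was not tested under the stricter filter. No paired analysis was possible because the groups share no replicate numbers. With 3 WT libraries the spread among cKO libraries limits what can be called, and 458 reads in all underlie H2-DMb1.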

Other observations

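The lists of other cells that a CD4+ sort could hold added few calls. Over all genes, the share called was 6.44% in edgeR, 10.2% in DESeq2 and 10.8% in limma voom. Of 4 tested plasma cell genes, Sdc1, which encodes syndecan-1, fell to 4.91 ± 1.42 CPM in cKO, against 14.5 ± 5.02 CPM in WT (SD, n = 4 and 3), for which edgeR gave a log2 fold change of -1.57 ± 0.27 (SE) and an adjusted p of 0.00924. Jchain, Mzb1 and Derl3 did not pass the test, and summed CPM of the list was 12.6 to 48.5 in cKO and 18.5 to 30.2 in WT. The CD8 genes Cd8a (0.284 to 2.78 CPM in cKO and 0.382 to 0.735 CPM in WT) and Cd8b1 (12.6 to 13.5 CPM in cKO and 8.74 to 11.1 CPM in WT) were not called by edgeR. Both were higher in cKO at an unadjusted p under 0.05, against 11.1% of all genes. DESeq2 and limma voom called Cd8b1 (log2 fold changes 0.38 and 0.42), and edgeR called Cd8a without cKO replicate 12 (1.95). Of 8 stroma genes 3 were tested and edgeR, DESeq2 and limma voom called 0. Pdpn was higher in cKO at an unadjusted p under 0.05, against 11.1% of all genes. It was called with the B cell marker covariate (log2 fold change 2.59), against 4.78% of all genes. Ccl19 and Ccl21a had no count in any library, Cdh5 had at most 0.166 CPM, and Pecam1, which T cells also express, made up nearly all of the list's 183 to 200.3 CPM in cKO and 189 to 222 CPM in WT.

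Among 10 T cell genes, Thy1, which encodes a surface glycoprotein, fell to 270.3 ± 108 CPM in cKO, against 562 ± 27.9 CPM in WT (SD, n = 4 and 3), with -1.06 ± 0.26 (SE) as the log2 fold change and 0.0414 as the adjusted p in edgeR. It was called in 10 of 18 settings, and leaving out cKO replicate 3 or 7 or any WT library ended the call. So did leaving out cKO replicates 2 and 7 together. Either marker covariate ended it too. The adjusted p in edgeR was 0.0948 with B cell markers and 0.128 with B cell, dendritic cell and macrophage markers. Lck and Cd3e had log2 fold changes of -0.12 ± 0.09 and 0.19 ± 0.06 and did not pass the test in edgeR, while limma voom called Cd3e (0.25) and DESeq2 called Cd28 (0.30).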
